A study of Mus musculus with 6 samples.

Results

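The 10 fibrillar collagen genes of the mouse listed here by symbol (Col1a1, Col1a2, Col3a1, Col5a1, Col5a2, Col5a3, Col11a1, Col11a2, Col24a1 and Col27a1) were examined in dorsal skin. They were chosen by name from a table of 55291 genes, with earlier results of these data known. All 10 passed the filter on low counts that left 19971 genes for testing. An 11th gene of the family, Col2a1 of cartilage, was outside the choice. It held 9 counts or fewer in every library and was not tested.

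The study sequenced shaved dorsal skin RNA of 3 mice with the tight skin mutation (TSK) and of 3 littermates without it (WT), 1 library per mouse, to see how the skin of the genotypes differs. TSK mice are heterozygous for a duplication inside Fbn1, the gene of the microfibril protein fibrillin 1, which every cell of the animal carries, and both groups share the C57BL/6 background. The labels give an age of 6-8 weeks and the female sex for all 6 mice, whereas the methods describe males. Transcripts of 4 Y-linked genes summed to 158 to 189 CPM (counts scaled to 1000000 per library) in the libraries. Xist, an RNA made mainly by female cells, measured 2.57 to 4.58 CPM. The Y-linked transcripts in all 6 libraries match the males of the methods and not the female label. Whole skin was used, so fewer cells of a type and less RNA per cell cannot be told apart in any value below.

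Fibrillar collagens are the rope-forming proteins of the dermis. Each chain carries a long run of Gly-X-Y triplets, in which a glycine is followed by 2 other residues, and 3 chains wind into a helix that is cut at both ends outside the cell and packed into fibrils. Type I collagen, built of 2 Col1a1 chains and 1 Col1a2 chain, makes up most dermal fibrils, and type III collagen, built of Col3a1 alone, is mixed into them. Type V chains (Col5a1, Col5a2, Col5a3) start fibril assembly and limit fibril width. Type XI chains (Col11a1, Col11a2) do the same in cartilage. Col24a1 and Col27a1 encode shorter-helix relatives known mainly from developing bone and cartilage.

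The shared design of the genes can be read in their coding sequence. The longest uninterrupted run of Gly-X-Y codons was 337 to 344 triplets in 8 genes, 216 in Col24a1 and 217 in Col27a1 (GENCODE M21, 1 transcript per gene). Between 21 and 31 exons within each run were 54 bases long, which is 18 codons. One such exon is printed for 4 genes, because these 4 span the range of differences reported below. The capitals mark the glycine codon that opens each triplet. Coordinates are those of GRCm38.
Col1a1 exon 8, chr11:94939904-94939957, plus strand: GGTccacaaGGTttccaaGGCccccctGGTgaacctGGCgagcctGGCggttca
Col1a2 exon 8, chr6:4515481-4515534, plus strand: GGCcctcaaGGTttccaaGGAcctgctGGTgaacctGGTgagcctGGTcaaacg
Col5a3 exon 15, chr9:20801068-20801121, minus strand: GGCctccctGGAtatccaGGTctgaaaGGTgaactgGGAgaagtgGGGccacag
Col24a1 exon 7, chr3:145328731-145328784, plus strand: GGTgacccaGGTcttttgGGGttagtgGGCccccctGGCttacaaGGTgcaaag
Each printed exon was picked as the first of 54 bases in its run in which every triplet opens with a glycine codon. At the 50 bases of a sequencing read, no stretch of any of the 10 genes was shared with another of the 10. Of the 50-base stretches of Col3a1, 0.927% were shared with Gm47302, an annotated miRNA gene inside one of its exons, to which less than 1 count was assigned in each library. Col1a2 shared 8 such stretches and Col27a1 3 with genes outside the family.

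Library totals lay between 17561453 and 19219814 counts, and the groups overlapped in depth. Fbn1 was higher in every TSK library (262 to 289 CPM in WT and 1538 to 2284 in TSK), with a log2 fold change of 2.54 (SE 0.22, adjusted p = 0.00327 in edgeR). The TSK 3 library stood apart in collagen counts from the other TSK libraries, so values are also given without it. Markers of several cell types differed as well. Calls in these lists are those of edgeR at an adjusted p below 0.05. Over all tested genes, 2.71% were called higher and 0.681% lower. A fibroblast list of 18 genes summed to 1645 to 2449 CPM in WT and 3032 to 4836 in TSK, with 4 genes called higher and none lower. Summed levels for the macrophage list (10 genes, none called) were 251 to 394 and 468 to 1277 CPM. An adult muscle list of 16 genes summed to 171000 to 248400 CPM in WT and 147000 to 168900 in TSK, with none called. Hair follicle genes (11 in the table, 9 tested) gave 10.2 to 20.3 and 45.9 to 52.2 CPM, with 5 called higher. Endothelial and Schwann cell lists were also higher in every TSK library, with 2 of 10 and 1 of 8 genes called higher. The summed levels of the adipocyte, basal keratinocyte, and smooth muscle and pericyte lists overlapped (the last with 1 of 10 genes called higher and a median log2 fold change of 0.58). Of the 12 adipocyte genes 3 were called higher and none lower, with a median log2 fold change of 2.45. The part of these cell types in the collagen differences was not tested. The 12 cartilage markers summed to 3.15 to 5.93 CPM in WT and 5.5 to 6.57 in TSK, 8 of them stayed under 10 counts in every library and Matn1 was at 0. Bone markers (10 genes, 4 tested) summed to 13.5 to 15.7 and 10.4 to 13 CPM, lower in every TSK library. Of these, 1 gene was called lower, and Bglap2, Mepe and Sost were at 0.

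The fibrillar collagens together held a greater share of the counts in every TSK library than in any WT library. The 10 genes held 0.675%, 0.905% and 1.03% of the counts in WT 1, 2 and 3, and 2.18%, 2.14% and 4.89% in TSK 1, 2 and 3. TSK 3 lay far above the other two. The mean share was 0.871% ± 0.181 in WT and 3.07% ± 1.58 in TSK (SD, n = 3, exact permutation test, two-sided, p = 0.1, the smallest value that 3 against 3 can give). The TSK mean was 2.16% without TSK 3. When muscle, ribosomal RNA and mitochondrial genes were left out of the totals (24.9% to 31.7% of the counts in WT and 18.5% to 22.4% in TSK), the means were 1.23% and 3.83%.

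**Figure D1:**
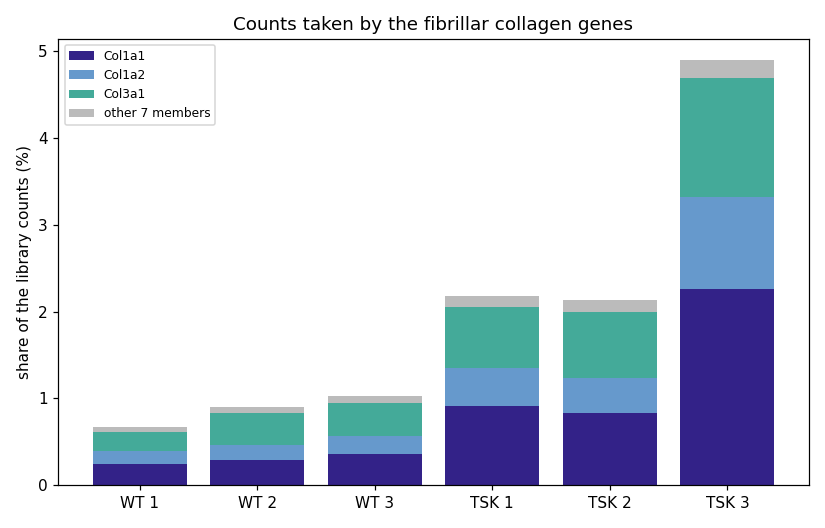
Share of all counts of a library (y axis, %) that fell in the fibrillar collagen genes, by library (x axis), with Col1a1, Col1a2 and Col3a1 as separate segments of each bar and the other 7 genes in grey. The WT bars end between 0.675% and 1.03%, the TSK 1 and TSK 2 bars at 2.18% and 2.14%, and the TSK 3 bar at 4.89%.

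Across all tested genes, 542 were called higher in TSK and 136 lower by edgeR with a threshold of 0.05 on the adjusted p (3.39% in either direction). The genes called higher became 226 without WT 2, 45 without WT 3, 321 without TSK 2 and 322 without TSK 3, and those called lower became 547 without WT 1, 61 without WT 2, 15 without WT 3, 60 without TSK 2 and 65 without TSK 3. Of the 10 fibrillar collagens, none was called higher and 1, Col24a1, was called lower, against 2.71% of all tested genes called higher and 0.681% called lower. DESeq2, the tool of the study, called 5 higher (Col1a1, Col1a2, Col3a1, Col5a1 and Col5a2) and Col24a1 lower, against 5.2% and 1.87% of its tested genes (7.07% in either direction). At an unadjusted p below 0.05 edgeR counted 7 of the 10, against 20% of all tested genes. With the thresholds of the study (adjusted p below 0.01 and more than 2.5-fold) edgeR called none, against 0.29% of all genes, and DESeq2 called 2 higher, Col1a1 and Col1a2, against 1.42% (1.74% in either direction). Scaling by library size only, edgeR called 5 higher, against 8.44%, and 1 lower, against 0.466%. On the deposited CPM, all TSK libraries exceeded all WT libraries in 6 of the 10 genes, against 29.1% of tested genes, and lay below them in 1, against 2.58%. With TMM scaling, which corrects for a few abundant genes taking up reads, these were 5 (against 14.1%) and 1 (against 10.6%). The median log2 fold change was 0.93 over the 10 genes (0.61 without TSK 3) and -0.026 over all tested genes.

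Col1a1 (chromosome 11, 94936224 to 94953042, plus strand), the main chain of type I collagen, had the highest mean level per length of the 10. Its fitted difference was the largest of the 10 in edgeR with all 6 libraries. That rank was lost without WT 3 (log2 fold change 2.01, Col11a1 2.02) and, in size, without TSK 3 (1.25, Col24a1 -1.26). The level of Col1a1 was 2511, 2950 and 3613 CPM in WT 1, 2 and 3 and 9125, 8302 and 22610 CPM in TSK 1, 2 and 3. No TSK library overlapped WT, and TSK 3 was well over the other two. Ranked by CPM among all genes, Col1a1 moved from places 28 to 37 in WT to places 5 to 11 in TSK. The ratio of means was 4.41 (2.88 without TSK 3), with a log2 fold change of 1.84 (SE 0.45, adjusted p = 0.0654 in edgeR and 7.22e-06 in DESeq2). The call thus differed between the tools.

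Col1a2 (chromosome 6, 4504814 to 4541544, plus strand), the partner chain, followed at a smaller size. It measured 1406, 1725 and 2076 CPM in WT and 4333, 4082 and 10550 CPM in TSK, in the order of the library numbers. The groups were apart, again with TSK 3 highest. The means were 1736 ± 335 and 6321 ± 3663 CPM (SD, n = 3), a ratio of 3.64 (2.42 without TSK 3). The log2 fold change was 1.56 (SE 0.41, adjusted p = 0.0821 in edgeR and 0.000195 in DESeq2).

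Col3a1 (chromosome 1, 45311538 to 45349706, plus strand), the chain of type III collagen, measured 2267, 3607 and 3748 CPM in WT and 7086, 7578 and 13650 CPM in TSK. TSK 3 was again the highest, and no library crossed between the groups. The ratio of means was 2.94 (2.29 without TSK 3) and the log2 fold change 1.24 (SE 0.38, adjusted p = 0.119 in edgeR and 0.00134 in DESeq2). The 95% intervals of Col1a1 (0.81 to 2.86), Col1a2 (0.61 to 2.5) and Col3a1 (0.36 to 2.12) all lay above 0 on the log2 scale and overlapped each other.

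Col5a1 (chromosome 2, 27886425 to 28039514, plus strand), the chain needed in every common form of type V collagen, measured 264, 417 and 443 CPM in WT. In TSK it measured 678, 771 and 1300 CPM, all above WT. The ratio of means was 2.45 (1.93 without TSK 3), with a log2 fold change of 0.97 (SE 0.32, adjusted p = 0.14 in edgeR and 0.0185 in DESeq2). An antisense transcript, 2810430I11Rik, overlaps one of its exons by 99 bases and held 6 to 21 counts per library. Libraries were stranded, but the strand setting of the counting was not given in the sources used here.

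Col5a2 (chromosome 1, 45374321 to 45503282, minus strand) supplies the second chain of that type V form. The gene faces Col3a1 with its 3′ end, 24614 bases away on the opposite strand. Its WT libraries held 151, 203 and 257 CPM and its TSK libraries 380, 422 and 597 CPM. The groups did not overlap, and TSK 3 stood less far from the other two than in Col1a1. The ratio of means was 2.29 (1.97 without TSK 3), and the log2 fold change was 0.89 (SE 0.27, adjusted p = 0.112 in edgeR and 0.0137 in DESeq2).

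Col5a3 (chromosome 9, 20770050 to 20815067, minus strand), a chain found in a subset of type V molecules, had a smaller fitted difference than its partners. Its values were 117, 119 and 140 CPM in WT and 155, 188 and 146 CPM in TSK. TSK 3, the highest library for the 5 genes above, was here the lowest TSK library. The groups were apart on the deposited CPM but overlapped after TMM scaling (114 to 158 in WT and 130 to 169 in TSK). The log2 fold change was 0.09 (SE 0.17, adjusted p = 0.809 in edgeR), with a 95% interval of -0.29 to 0.48.

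The type XI chains were scarce in skin. Col11a1 (chromosome 3, 114030540 to 114220718, plus strand) measured 2.44, 1.76 and 5.01 CPM in WT and 6.43, 4.39 and 19.7 CPM in TSK, and the groups overlapped. Its ratio of means was 3.32 with TSK 3 and 1.77 without it. The log2 fold change was 1.43 (SE 0.58, adjusted p = 0.218 in edgeR and 0.0797 in DESeq2). Col11a2 (chromosome 17, 34039437 to 34066685, plus strand) measured 5.52, 4.10 and 4.78 CPM in WT and 4.95, 4.53 and 13.7 CPM in TSK. Here TSK 3 alone exceeded the WT range. The ratio of means was 1.61 with TSK 3 and 0.987 without it, and the log2 fold change of 0.41 (SE 0.39, adjusted p = 0.617 in edgeR) became -0.27 when TSK 3 was left out.

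Col24a1 (chromosome 3, 145292472 to 145552011, plus strand), one of the relatives with a shorter helix, was the only fibrillar collagen that fell. Its libraries held 144, 165 and 188 counts in WT and 103, 67 and 98 counts in TSK. In CPM these were 8.20, 8.78 and 10.3 against 5.67, 3.49 and 5.19, so every TSK library was below every WT library, and TSK 3 did not stand apart. The ratio of means was 0.525 (0.502 without TSK 3). The log2 fold change was -1.22 (SE 0.24, 95% interval -1.76 to -0.67, adjusted p = 0.034 in edgeR and 0.000616 in DESeq2). The edgeR call was lost without WT 2 (adjusted p = 0.0976), WT 3 (0.142), TSK 2 (0.0676) or TSK 3 (0.0772), while the log2 fold change stayed between -1.39 and -1.03 in all 6 such fits.

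Col27a1 (chromosome 4, 63214004 to 63334991, plus strand), the closest relative of Col24a1 by the length of the helix, measured 19.5, 14.7 and 19.7 CPM in WT and 18.2, 19.4 and 25.2 CPM in TSK. The groups overlapped. The log2 fold change was -0.05 (SE 0.15, 95% interval -0.40 to 0.29, adjusted p = 0.884 in edgeR) and 0.22 when libraries were scaled by total counts only. That scaling moved the median of all tested genes from -0.026 to 0.25.

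**Figure D2:**
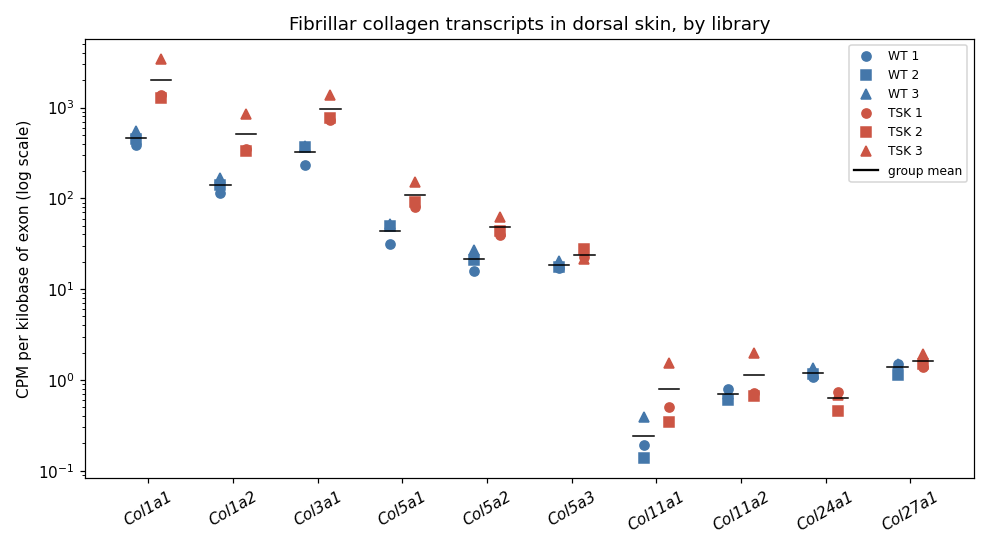
Level of each fibrillar collagen gene in CPM per kilobase of annotated exon (y axis, log scale) in the 3 WT and 3 TSK libraries, with 1 symbol per library and a line at each group mean. The 3 TSK points lie above the 3 WT points for Col1a1, Col1a2, Col3a1, Col5a1, Col5a2 and Col5a3, and below them for Col24a1, on the deposited CPM (the groups of Col5a3 overlap after TMM scaling).

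**Figure D3:**
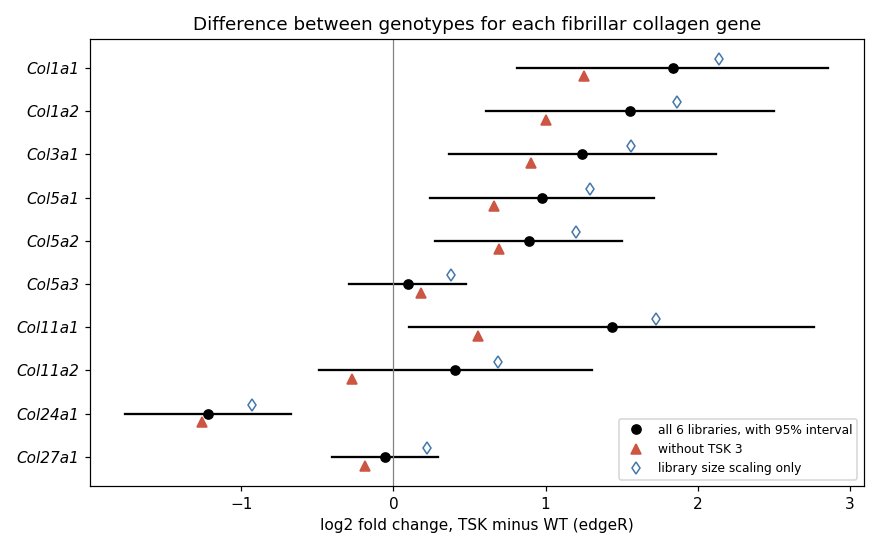
Log2 fold change between TSK and WT (x axis) for each gene (y axis), with the 95% interval of edgeR over all 6 libraries, the value without TSK 3 (triangles) and the value with scaling by library size only (diamonds). Values run from 1.84 for Col1a1 to -1.22 for Col24a1, and without TSK 3 the Col11a2 value moves from 0.41 to -0.27.

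Expressed per kilobase of annotated exon, the genes formed 3 tiers of level in WT skin. Col1a1 led with 461 ± 84.5 CPM per kb, followed by Col3a1 with 327 ± 83.3 and Col1a2 with 140 ± 27.0 (SD, n = 3). The type V tier held Col5a1 at 44.1 ± 11.4, then Col5a2 at 21.2 ± 5.54 and Col5a3 at 18.4 ± 1.88, and the last 2 overlapped. In the lowest tier Col27a1 was at 1.38 ± 0.218 and Col24a1 at 1.20 ± 0.145, which overlapped each other, above Col11a2 at 0.699 ± 0.104 and Col11a1 at 0.241 ± 0.135. Apart from these overlaps each gene was above the next in all WT libraries, although the lowest Col1a1 library (383) was close to the highest Col3a1 library (382). In TSK the order of the 7 leading means was unchanged, although the libraries of Col1a1 overlapped those of Col3a1, and those of Col3a1 overlapped those of Col1a2. Among the scarce genes, each of Col27a1, Col11a2, Col11a1 and Col24a1 overlapped the next in TSK. Col24a1, eighth in WT, was last in TSK at 0.627 ± 0.151 CPM per kb, next to Col11a1 at 0.799 ± 0.653. That last place rested on TSK 3, since Col24a1 was above Col11a1 in TSK 1 (0.743 against 0.505) and TSK 2 (0.457 against 0.345). The order between genes rests on annotated exon length, which is long for Col1a2 (12426 bases against 6563 for Col1a1), whereas the fold difference of a single gene between groups does not.

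To compare the chains with each other, 11 ratios of levels per kb were formed within each library, which removes library scaling. All TSK libraries were above all WT libraries in 7 ratios, none was the other way around, and 4 overlapped. Each of the 7 had an exact permutation p of 0.1 (two-sided), the smallest that 3 against 3 allows, and 0.157 after adjustment over the 11 ratios. Col1a1 entered 6 of the ratios, which are therefore not independent.

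The ratio of Col1a1 to Col1a2, the pair that forms type I collagen, varied least between mice. It was 3.38, 3.24 and 3.30 in WT and 3.99, 3.85 and 4.06 in TSK. The size of this ratio rests on annotated exon length, whereas its fold difference between the groups does not. The means were 3.31 ± 0.0728 and 3.97 ± 0.106 (SD, n = 3), a difference several times the spread within either group. It corresponded to a 1.20-fold higher ratio in TSK (exact permutation test, two-sided, p = 0.1), and to 1.19-fold without TSK 3. For comparison, the ratio of Col1a1 to Col3a1 was 1.66, 1.22 and 1.44 in WT and 1.93, 1.64 and 2.48 in TSK, and these groups overlapped (exact permutation p = 0.2).

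Within the family, where shares depend on exon length, Col1a1 made up 48.2%, 43% and 45.8% of the summed level per kb in WT and 53.3%, 50% and 58.1% in TSK. The share of Col1a2 overlapped between the groups (13.8% ± 0.495 and 13.6% ± 0.688), as did that of Col3a1 (32% ± 3.03 and 27.2% ± 3.55). Col5a1, Col5a2, Col5a3, Col11a2, Col24a1 and Col27a1 made up a smaller share in every TSK library than in any WT library, and the share of Col11a1 overlapped. A smaller share is not a lower level, since shares of a sum fall as that of Col1a1 rises. On the deposited CPM only Col24a1 of these was lower in every TSK library, while Col5a1, Col5a2 and Col5a3 were higher.

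The major chains were next set against Col5a1 and Col5a2. The ratio of Col1a1 to Col5a1 was 12.3, 9.16 and 10.6 in WT and 17.4, 13.9 and 22.5 in TSK, which is 1.66-fold apart (1.47-fold without TSK 3). Both type I chains over Col5a1 and Col5a2 together, sums that also depend on exon length, gave 10.6, 8.38 and 9.09 against 14.6, 11.8 and 19.9, which is 1.62-fold (1.41-fold without TSK 3). The ratio of Col3a1 to Col5a2 was 14.7, 17.4 and 14.3 in WT and 18.2, 17.6 and 22.3 in TSK. These 3 ratios were higher in every TSK library, the last by a narrow margin (exact permutation p = 0.1 each).

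Within type V collagen each partner was set against Col5a1. The ratio of Col5a1 to Col5a2 was 1.98, 2.32 and 1.95 in WT and 2.01, 2.07 and 2.46 in TSK, with overlapping groups (exact permutation p = 0.5). The ratio of Col5a1 to Col5a3 was 1.81, 2.81 and 2.54 in WT and 3.50, 3.29 and 7.13 in TSK, 1.85-fold higher (1.45-fold without TSK 3). Col5a1 and Col5a2 thus kept overlapping proportions, whereas Col5a3 was lower against Col5a1 in every TSK library.

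The scarce chains were compared last. The ratio of Col5a1 to Col11a1 ranged from 133 to 356 in WT and from 99 to 264 in TSK, and that of Col11a1 to Col11a2 from 0.231 to 0.565 and from 0.523 to 0.775. Both overlapped. The ratio of Col1a1 to Col24a1 was 356, 390 and 406 in WT and 1870, 2766 and 5055 in TSK, a 7.75-fold difference (5.94-fold without TSK 3). For Col1a1 to Col27a1 the ranges were 255 to 398 and 847 to 1782, a 3.44-fold difference (2.75-fold without TSK 3).

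**Figure D4:**
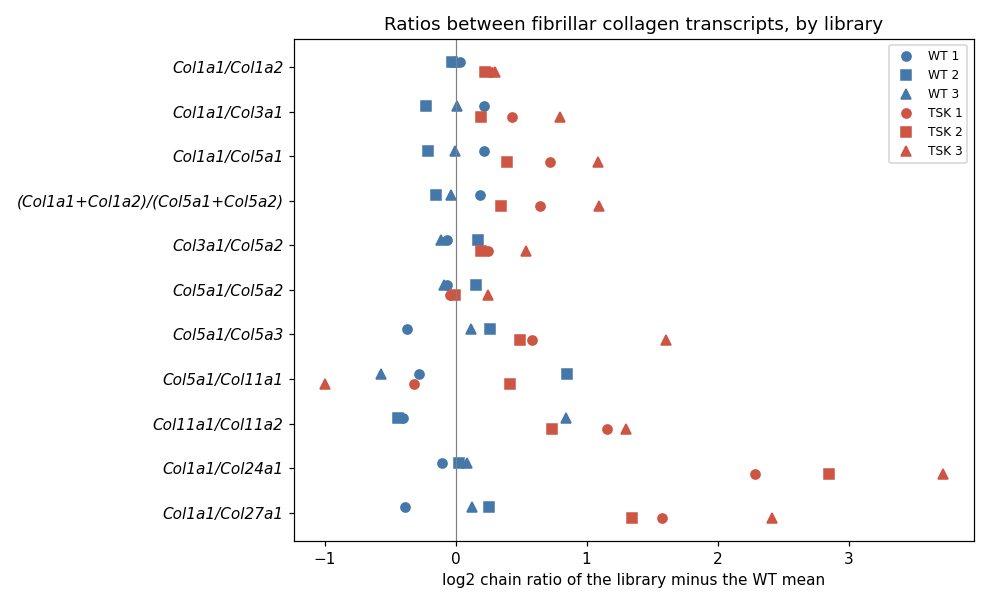
Log2 ratio of the levels per kb of the named chains in each library minus the mean of the WT libraries (x axis) for the 11 ratios (y axis), with 1 symbol per library. The WT points of Col1a1/Col1a2 lie in a narrow group with the TSK points to their right by 0.26 on average, and the widest shift is that of Col1a1/Col24a1 at 2.95.

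The collagens were also set beside other fibroblast genes. The summed CPM of Col1a1, Col1a2 and Col3a1 over that of 15 fibroblast genes without collagens gave log2 ratios of 2.64, 2.59 and 3.02 in WT and 3.49, 2.95 and 3.99 in TSK. The groups overlapped (difference 0.72, exact permutation test, two-sided, p = 0.2), and the difference was 0.46 without TSK 3. Taken singly, Col1a1 over this list was higher in every TSK library (difference 0.95), and the ratios of Col1a2, Col3a1, Col5a1, Col5a2, Col11a1 and Col11a2 overlapped. Col5a3 (difference -0.67), Col24a1 (difference -2.01) and Col27a1 (difference -0.83) were lower over the list in every TSK library. Over Pdgfra alone, a receptor gene of fibroblasts, the 3 major genes gave 7.76, 7.44 and 7.58 in WT and 8.57, 8.23 and 8.82 in TSK, with no overlap (difference 0.94, exact permutation p = 0.1).

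A 150-base stretch before the start of transcription is shown for 3 genes that differ in direction and abundance: Col3a1 and Col5a1, higher in every TSK library, and Col24a1, which fell. Sequences are from RefSeq (GRCm38.p6), in which promoters of 8 of the 10 genes were found; Col1a1 and Col5a2 had no entry. The capitals mark GGGCGG, the GC box motif bound by Sp1, on either strand.
Col3a1, chr1:45311388-45311537, plus strand: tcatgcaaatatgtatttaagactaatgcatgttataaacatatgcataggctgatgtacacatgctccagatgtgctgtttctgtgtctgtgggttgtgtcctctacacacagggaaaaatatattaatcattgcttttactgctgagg
Col5a1, chr2:27886275-27886424, plus strand: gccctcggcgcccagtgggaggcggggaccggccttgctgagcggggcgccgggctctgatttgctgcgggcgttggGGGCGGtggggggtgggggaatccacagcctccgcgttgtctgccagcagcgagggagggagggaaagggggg
Col24a1, chr3:145292322-145292471, plus strand: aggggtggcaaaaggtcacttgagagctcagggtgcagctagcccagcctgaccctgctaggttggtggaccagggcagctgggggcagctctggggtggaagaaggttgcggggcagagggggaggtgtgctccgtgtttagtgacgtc
Over the 250 bases before the start, GGGCGG was found on either strand in 6 of 8 genes, all but Col3a1 and Col24a1, against 32.7% of 32851 promoters of the same length. The motif CCAAT was found on either strand in 3 of 8 (Col1a2, Col5a3 and Col11a1), against 33.8%. The GENCODE start minus the RefSeq start was -804 bases for Col1a2, 299 for Col11a2 and -1408 for Col27a1 and 0 for the others. Exons annotated to Col1a2 itself covered part of the last 150 bases before its RefSeq start. Col3a1 and Col24a1 held neither motif in this window.

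Collagen chains pass through modifying enzymes, chaperones, proteinases and crosslinking enzymes before they form fibrils. Genes of these steps were counted together with regulators of collagen transcription and mRNA, proteins of the fibril surface, collagen receptors and genes of collagen breakdown, 100 tested genes in all. edgeR called 13 of them higher in TSK and 1 lower, against 2.71% and 0.681% of all tested genes, and their median log2 fold change was 0.43 (0.29 without TSK 3), against -0.026 over all genes. DESeq2 called 29 higher and 4 lower, against 5.2% and 1.87% of its tested genes. The 14 edgeR calls became 8 without WT 2, 1 without WT 3, 8 without TSK 2 and 6 without TSK 3.

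Enzymes that hydroxylate the chains (15 genes) had a median of 0.27, and 1 was called higher, against 2.71% of all tested genes. That was Crtap, a partner of prolyl 3-hydroxylase, which rose from 10.5 ± 0.477 to 24.6 ± 2.10 CPM (log2 fold change 0.94, adjusted p = 0.0123 in edgeR). Of 14 folding and export genes edgeR called none (9 had an unadjusted p below 0.05, against 20% of all tested genes, and DESeq2 called 4 higher and 1 lower, against 5.2% and 1.87%), with a median of 0.16. Fkbp10, a chaperone of procollagen, was at 13.8 ± 2.64 CPM in WT and 29.3 ± 8.93 in TSK (adjusted p = 0.0666 in edgeR).

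The proteinases that trim procollagen (8 genes) had a median of 1.04 (0.67 without TSK 3) and 2 were called higher, against 2.71% of all tested genes. Bmp1, which removes the C-terminal propeptide of the major fibrillar chains, rose from 51.2 ± 4.43 to 147 ± 36.5 CPM (log2 fold change 1.23, adjusted p = 0.0171 in edgeR). Pcolce2, which enhances that cleavage, was at 6.83 ± 1.63 CPM in WT and rose to 38.2 ± 17 in TSK, by 2.17 on the log2 scale (adjusted p = 0.0171). Adamts2, which removes the N-terminal propeptide, was at 45.1 ± 12.4 and 136 ± 60.0 CPM (adjusted p = 0.0863). Of 6 crosslinking genes 1 was called higher and 1 lower, against 2.71% and 0.681% of all tested genes. Loxl1, a lysyl oxidase relative known mainly for elastin, rose (log2 fold change 1.33, adjusted p = 0.0304 in edgeR). Tgm2, a transglutaminase, fell (log2 fold change -0.89, adjusted p = 0.0291 in edgeR).

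Proteins that sit on the fibril surface (14 genes) had a median of 0.97, all 14 fold changes were above 0 (9388 of the 19971 over all tested genes), and 3 were called higher, against 2.71%. DESeq2 called 7 higher, against 5.2%. Col14a1, a collagen that binds the fibril surface, rose from 58.3 ± 14.9 to 320 ± 89.9 CPM (log2 fold change 2.14, adjusted p = 0.0123 in edgeR). The proteoglycan gene Prelp rose by 1.88 on the log2 scale (adjusted p = 0.0107), and Dpt, which encodes dermatopontin, by 1.22 (adjusted p = 0.0239).

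Receptors for collagen gave 2 genes called higher of 11, against 2.71% of all tested genes (median 0.35, and 0.20 without TSK 3). Ddr2, a tyrosine kinase activated by fibrillar collagen, rose from 72.6 ± 22.1 to 246 ± 71.7 CPM (log2 fold change 1.5, adjusted p = 0.0148 in edgeR), and Adgrg1, a receptor that binds type III collagen, rose by 0.61 on the log2 scale (adjusted p = 0.0351). Genes of collagen breakdown gave 3 called higher of 11 (median 0.76), against the same 2.71%. Ctsk, a cathepsin that cleaves the collagen helix, had a log2 fold change of 1.57 (adjusted p = 0.036 in edgeR). The membrane collagenase Mmp14 had 1.26 and its partner inhibitor Timp2 had 1.27 (adjusted p = 0.0369 in edgeR for each). Of 21 regulators of collagen transcription and mRNA (median 0.12), 1 was called higher, against 2.71% of all tested genes. That gene was Fli1, known to hold collagen transcription down in fibroblasts (log2 fold change 0.80, adjusted p = 0.0342 in edgeR). Larp6, which binds the mRNAs of type I collagen, was at 1.94 ± 0.456 CPM in WT and 5.99 ± 2.37 in TSK (adjusted p = 0.0673).

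Among the other collagen families, 29 genes were tested. Their median difference was 0.09 on the log2 scale (0.039 when TSK 3 was left out) against 0.93 in the fibrillar family. edgeR called 1 higher, Col14a1, against 2.71% of all tested genes, and 2 lower, against 0.681%. Without WT 3 it called 1 in all. The latter were Col19a1, a fibril-associated collagen (4.82 ± 0.528 to 2.07 ± 0.313 CPM, log2 fold change -1.5, adjusted p = 0.0123 in edgeR), and Col7a1, the anchoring fibril collagen made by keratinocytes and fibroblasts (210 ± 54.2 to 104 ± 23.6 CPM, log2 fold change -1.27, adjusted p = 0.0191). Col12a1, a fibril-surface collagen like Col14a1, was at 79.1 ± 30.7 and 221 ± 50 CPM (adjusted p = 0.0602). Whether the families differ from each other was not tested.

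**Figure D5:**
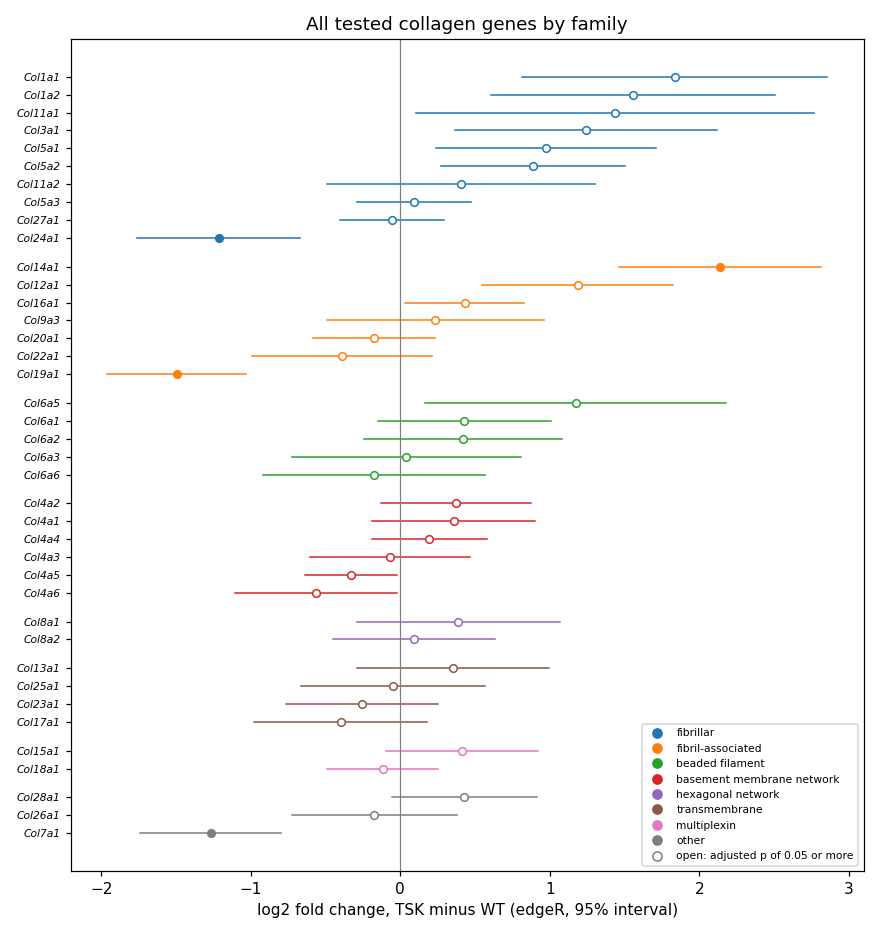
Log2 fold change between TSK and WT with the 95% interval of edgeR (x axis) for all 39 tested collagen genes (y axis), coloured by family. Filled points passed an adjusted p of 0.05: Col24a1, Col19a1 and Col7a1 lie below 0 and Col14a1 above it.

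Genes whose pattern over the 6 libraries was most like that of the 3 major collagens were found by the root mean square difference in centred log2 TMM CPM from the mean of Col1a1, Col1a2 and Col3a1, over 12007 genes with a mean CPM of at least 5. The median difference was 0.905. The 8 most like genes outside the family were Ntn1 (0.131), Cep295nl (0.157), Meg3 (0.163), Reck (0.176), Ctsk (0.176), Fbln1 (0.181), Cd163 (0.186) and Zfp469 (0.198). Cep295nl lies within Timp2 on the same strand, so counts of the pair may not be fully separable. Ntn1, which encodes a secreted guidance protein, measured 11.9, 14.1 and 15.3 CPM in WT and 43.9, 36.8 and 81.4 CPM in TSK. Its highest value in TSK 3 follows from the choice by likeness to the major collagens. Among the other fibrillar genes the difference from the major chains grew from Col5a1 (0.289) and Col5a2 (0.354) through Col11a1 (0.472), Col11a2 (0.692), Col27a1 (0.847) and Col5a3 (0.850) to Col24a1 (1.40).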

How the data were processed

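RNA from dorsal skin of 3 TSK and 3 WT mice was sequenced by the authors as stranded, ribosome-depleted libraries with single-end reads of 50 bases. Per the labels, bcl2fastq 2.19.1.403, STAR, Partek 11.0 and the mm10 build were used. The authors deposited a table of estimated counts per gene, of which 43.3% to 45.4% of the non-zero values were whole (within 0.001), and a CPM table scaled to 1000000 per library. Whole-number counts had been planned for, so the estimated counts were rounded before testing. There were 0 columns of other samples.

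Libraries were grouped by the genotype in the labels. TSK was compared with WT by edgeR's quasi-likelihood test (edgeR 4.0.16, R 4.3.3) with TMM scaling, filterByExpr and Benjamini-Hochberg adjustment over 19971 genes, at an adjusted p below 0.05. DESeq2 1.42.0 and limma 3.58.1 were alternatives, among 17 in all, which also covered scaling, pseudocounts (1 and 0.1), filters, composition, the replicate block and omission of single libraries. The scripts were tested on simulated data. Standard errors were derived from the F statistic. Ratios used counts per kb of GENCODE M21 exon and exact permutation tests, whose function was checked against scipy 1.17.1.

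The members, lists and tests were chosen with earlier results of these data known, from names and general knowledge. Named genes were the 10 members, Fbn1, Col2a1, up to 3 genes per list or collagen family with the lowest adjusted p, the 8 genes of most similar pattern, overlapping genes and defining marker genes. Depth was 17561453 to 19219814 counts per library. Same-numbered libraries did not deviate together (correlations of 0.0112, 0.167 and -0.0938), so the numbers were not treated as pairs. Libraries of a group were not copies of each other (chi-square per degree of freedom of at least 8.02).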

Additional observations from a re-analysis of the deposited data

How the results depend on the processing

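Of 170 values of the 10 genes under the 17 alternatives, 131 kept direction and side of the threshold, 26 became significant, 4 lost significance and 9 changed sign. Members called higher, none with edgeR, numbered 5 with library size only, DESeq2 and limma-trend at either pseudocount, 4 with no low-count filter and 2 with the replicate block (Col11a1, adjusted p = 0.0233, and Col5a2, adjusted p = 0.0485). At 0.01 and 2.5-fold, DESeq2 called 2 and the unfiltered fit 1. The 1 member called lower became 0 to 1 when single libraries were left out.

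All genes called higher, 542, became 1685 with library size only, 1129 with DESeq2, 1771 and 1761 with limma-trend on log2(CPM + 1) and log2(CPM + 0.1), and 1040 with no filter. Those called lower, 136, became 406 with DESeq2 and 347 with no filter. Without single libraries they ranged from 45 to 713 and from 15 to 547, both lowest without WT 3. Pathway genes called, 14, became 43, 33, 45, 43 and 30 under the same 5 settings and 1 to 17 without single libraries. Non-fibrillar collagens called, 3, became 6 with library size only, 7 with limma-trend at either pseudocount, and 1 to 3 without single libraries. The cause was not tested.

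Signs changed for Col5a3 without WT 1 (-0.0064) and TSK 2 (-0.013, range -0.013 to 0.21), for Col11a2 without TSK 3 (-0.27, range -0.27 to 0.68 without single libraries) and for Col27a1 with library size only (0.22), limma-trend (0.21 and 0.22), and without WT 3 (0.049), TSK 1 (0.013) or TSK 2 (0.00013, range -0.19 to 0.049). The Col5a1/Col5a2 log2 ratio became -0.025 without TSK 3 (range -0.025 to 0.14), and Col5a1/Col11a1 became 0.13 without WT 2 and 0.049 without TSK 3 (range -0.66 to 0.13). The other ratios kept their sign. The sources used here do not say whether library numbers mark a shared litter or batch, and the replicate block is only an alternative. Depth limits Col11a1, which held 33 to 372 counts per library, Col11a2, which held 77 to 259, and Col24a1, which held 67 to 188. Estimated counts may share a read among genes. With 3 mice per group, permutation cannot give an exact p under 0.1.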

Other observations

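A pair of annotated single-exon genes of unknown function lie inside introns of fibrillar collagen genes on the same strand, and were chosen after their values were seen. Gm43921, in an intron of Col1a2 (chromosome 6, 4506087 to 4507878), held 45, 36 and 65 counts in WT 1, 2 and 3 and 85, 121 and 258 counts in TSK 1, 2 and 3. Gm38211, in an intron of Col5a2 (chromosome 1, 45485836 to 45493052), held 64.1, 60.3 and 60.3 counts in WT and 107.5, 125 and 212 in TSK. Both were higher in every TSK library on the deposited CPM (against 29.1% of tested genes) and highest in TSK 3, as their host genes were. The ratio of mean CPM was 3.06 for Gm43921 (2.04 without TSK 3), where Col1a2 had 3.64, and 2.33 for Gm38211 (1.83 without TSK 3), where Col5a2 had 2.29. Neither passed the test (log2 fold change 1.32, SE 0.40, edgeR adjusted p = 0.113, and 0.94, SE 0.25, adjusted p = 0.0851). Whether these reads come from unspliced host transcripts was not tested.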
